A study of Mus musculus with 8 samples.

Results

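Tnfrsf4, Tnfrsf9, Tnfrsf18, Icos, Tnfsf8 and Tnfsf11 are 6 of the 2000 genes in a single-cell RNA sequencing table of mouse tumours, and were taken by name. The first 3 encode receptors of the tumour necrosis factor (TNF) receptor family, Icos encodes a receptor of the CD28 family, and the last 2 encode TNF-family ligands. The tumours came from Hepa1-6, an established mouse hepatoma cell line. The labels give 4 groups: wild-type tumours whose hosts received PBS by intraperitoneal injection, wild-type tumours whose hosts received a PD1 antibody by the same route, and the same 2 treatments for tumours of Hepa1-6 cells with Soat1 disrupted. The last pair is named a knockout in some labels and a knockdown in others. The 8 samples are 2 entries per group, titled cDNA and oligo, and the titles do not name them as replicates. The strain and age of the hosts and the number of animals are not given in the sources used here.

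TNF-receptor-family costimulators are displayed on T cells after antigen recognition. When ligand clusters them they recruit TRAF adaptor proteins and switch on NF-kB, which favours survival and division. Tnfrsf4 encodes OX40, whose ligand is the product of Tnfsf4. Tnfrsf9 encodes CD137, a marker of recently activated T cells whose ligand is the product of Tnfsf9. Tnfrsf18 encodes GITR, which is abundant on regulatory T cells. Icos is the inducible costimulator, a relative of Cd28 and Ctla4 that signals through phosphoinositide 3-kinase and is a feature of helper and regulatory T cells. Tnfsf8 encodes CD30 ligand, and Tnfsf11 encodes RANK ligand, which acts on osteoclast precursors and dendritic cells and which activated T cells can make. Regulatory T cells in tumours are known to display OX40, CD137, GITR and ICOS.

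By RefSeq on build GRCm38.p6, 4 of the 6 genes lie on chromosome 4. Tnfrsf4 (156013595 to 156016613) and Tnfrsf18 (156026322 to 156028894) are neighbours, 9708 bases apart. Tnfrsf9 spans 150920155 to 150946104 and Tnfsf8 spans 63831202 to 63861508. Tnfsf11 lies on chromosome 14 (78277446 to 78308043). Icos lies on chromosome 1 (60960773 to 61000322), 44940 bases from its relative Ctla4.

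The 250 bases before the start of 1 receptor and 1 ligand are shown because different T cells came first for them. Cells were gated in 2 ways, by value and by UMI, as described below. By value, Tnfrsf9 was highest in regulatory T cells and Tnfsf11 in CD4 T cells in 6 of 6 sets. By UMI in set 1, Tnfrsf9 was highest in CD8 T cells and Tnfsf11 again in CD4 T cells. Both windows overlap no annotated exon. Capitals mark the letters GGAAA, the core that NFAT factors recognise, on either strand. NFAT is switched on by T cell receptor signalling. The Tnfrsf9 window is chr4:150919905-150920154 on the plus strand, and the Tnfsf11 window is chr14:78308044-78308293 on the minus strand.
Tnfrsf9: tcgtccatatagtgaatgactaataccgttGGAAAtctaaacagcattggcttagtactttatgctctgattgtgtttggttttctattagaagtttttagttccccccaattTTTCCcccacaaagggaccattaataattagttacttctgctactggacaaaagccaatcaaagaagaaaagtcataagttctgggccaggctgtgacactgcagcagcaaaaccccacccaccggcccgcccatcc
Tnfsf11: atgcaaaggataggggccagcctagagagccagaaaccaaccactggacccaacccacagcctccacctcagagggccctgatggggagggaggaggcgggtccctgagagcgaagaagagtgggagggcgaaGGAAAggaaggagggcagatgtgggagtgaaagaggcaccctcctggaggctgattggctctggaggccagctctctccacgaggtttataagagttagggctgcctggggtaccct

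The Tnfrsf9 window held 2 matches, 220 to 216 and 137 to 133 bases before the start, and the Tnfsf11 window held 1, 117 to 113 bases before it. The core is short and common: 18254 of 32851 RefSeq promoters (55.6%) hold it. An NF-kB motif (in 3.9% of promoters) and the AP-1 motif TGANTCA (in 6.75%) were also searched on both strands. Neither was found in the windows above, or in those of Tnfrsf4, Tnfrsf18 and Tnfsf8. A second annotated start of Tnfrsf9, which lies inside the gene and shares 81 bases with a Tnfrsf9 exon, held GGGGATTTCCC 43 to 33 bases before it, a run that matches the NF-kB motif, and TGAGTCA 15 to 9 bases before it, which matches AP-1. A match of letters is a description of the window and shows no binding.

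The table holds 53528 cells in 6 numbered sets of 7569 to 11813 cells. Nothing in the cell names links a set to a group, so Soat1 disruption and antibody treatment were not compared, and the level of Soat1 was not analysed here. Whether libraries share cell barcodes could not be counted, since the names are running numbers. The sets are given as the lowest, the median and the highest of 6, with no test. Whether they are independent samples is not known, so counts of sets that agree are a description and not a measure of replication. Values are natural logarithms. In set 1 they convert back to whole unique molecular identifiers (UMIs, tags that count RNA molecules) in 100% of nonzero values, with 1001 to 261833 UMIs per cell (median 11098.5). In sets 2 to 6 between 22.9 and 33.4% of values lie below 0, from a step that is not recorded. Levels in sets 2 to 6 are therefore means of the deposited values, and set 1 adds counts as UMIs per 1000000 UMIs of the class (CPM), with exact Poisson 95% intervals. These intervals cover counting error only. The effect of the unrecorded step on how far the sets agree was not tested. Libraries count the 3′ ends of transcripts, so a level of 1 gene is compared between cell types and never with the level of another gene.

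The labels name the cells as liver cancer cells, but marker genes found immune cells too, with 11908 CD8 T, 824 CD4 T, 382 regulatory T, 377 NK, 3715 macrophage or monocyte, 916 dendritic and 281 neutrophil cells over the 6 sets by value. Cell types were gated by marker genes. Cd8a or Cd8b1 marked CD8 T cells, Cd4 marked CD4 T cells and Foxp3 marked regulatory T cells. Each of these also needed a T cell receptor or CD3 gene. NK cells were gated by a list of NK receptor genes, Eomes and Gzma, without T cell genes. Hepatoma cells, which should lack all 6 genes, served as the background. Set 1 was gated in 2 ways: by UMI, where 1 UMI of a marker counts as present, and by value, where a marker must exceed 0.5 natural log units, as in sets 2 to 6. The 2 gatings differed in how much hepatoma RNA the gated lymphocytes carried. Regulatory T cells gated by UMI were 102 cells with a median of 21480 UMIs and 35.5 UMIs per 10000 from 10 hepatoma genes such as Alb and Afp. Gated by value they were 45 cells with a median of 4636 UMIs and 8.64 per 10000. For CD8 T cells the same list stood at 12.1 in 1520 cells by UMI and 9.73 in 1140 cells by value, and for CD4 T cells at 14.3 in 87 cells and 10.0 in 64 cells. Summed over regulatory T cells, 7 T cell genes (T cell receptor, CD3 and CD8 genes) reached 269 CPM by UMI and 2142 by value. Results of set 1 are given under both gatings, since several change with the choice.

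**Figure D1:**
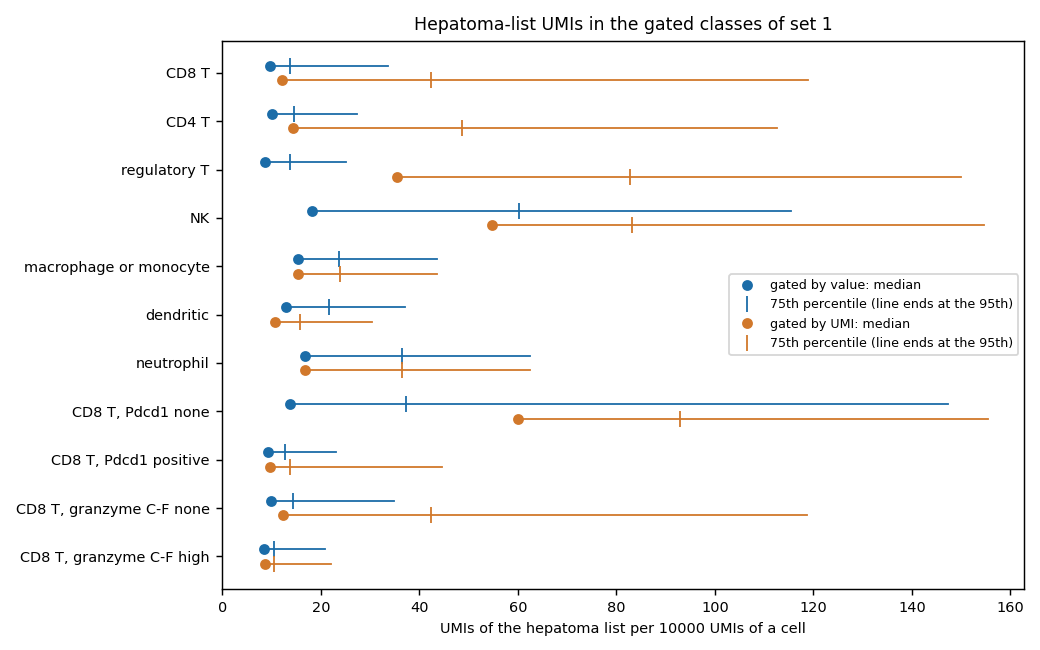
UMIs per 10000 from 10 hepatoma genes in the gated classes of set 1 (x axis) under both gatings, with the median over cells as a point and a line to the 95th percentile. CD8 T cells without Pdcd1 (60.1 by UMI, 13.7 by value) and NK cells (54.7 and 18.2) differed most between gatings.

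Across the 6 sets, gated by value, the 3 TNF receptors were higher in regulatory T cells than in CD8 T, CD4 T, NK, myeloid and hepatoma cells, each taken whole, in every set. For Tnfrsf4, the OX40 gene, the mean value in regulatory T cells had a lowest, median and highest set of 1.14, 1.25 and 1.57. In CD4 T cells it had 0.77, 0.84 and 0.93, and in CD8 T cells 0.21, 0.22 and 0.27. These 3 ranges did not overlap. Every set had the order regulatory T, CD4 T, CD8 T for Tnfrsf4. The share of cells with a value above 0.5 had a median of 69.1% in regulatory T cells, 47.8% in CD4 T cells, 17.8% in CD8 T cells and 0.651% in hepatoma cells. These classes held 45 to 99 regulatory T cells, 64 to 226 CD4 T cells and 1140 to 3116 CD8 T cells per set. A value above 0.5 needs more UMIs in a deeper cell. Hepatoma cells of set 1 had a median of 23890 UMIs, against 3323 to 5204 in the 3 T cell classes. The hepatoma shares above 0.5, here and for Icos below, are therefore not at equal depth.

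Tnfrsf9, the CD137 gene, was the member for which CD8 T cells came closest to CD4 T cells. Its mean value was 1.62, 1.70 and 1.78 (lowest, median, highest set) in regulatory T cells. It was 0.96, 1.00 and 1.13 in CD4 T cells, and 0.95, 1.02 and 1.10 in CD8 T cells. The ranges of CD4 and CD8 T cells overlapped throughout, and CD8 T cells were the higher of the pair in 4 of 6 sets. Tnfrsf18, the GITR gene, had 1.41, 1.69 and 1.86 in regulatory T cells, 1.09, 1.17 and 1.29 in CD4 T cells, and 0.50, 0.53 and 0.58 in CD8 T cells. The difference between regulatory and CD4 T cells in Tnfrsf18 ran from 0.14 in set 2 to 0.70 in set 6.

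Icos was high in both regulatory and CD4 T cells and lower in CD8 T cells. Its mean value was 1.40, 1.64 and 1.88 in regulatory T cells, 1.24, 1.35 and 1.48 in CD4 T cells, and 0.42, 0.55 and 0.69 in CD8 T cells. Regulatory T cells were higher than CD4 T cells in 5 of 6 sets, and in set 3 they were lower by a difference of -0.05. A value above 0.5 was found in a median of 79.7% of regulatory T cells, 74.1% of CD4 T cells, 46.3% of CD8 T cells and 1.70% of hepatoma cells.

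The 2 ligands had another order, with CD4 T cells first in 6 of 6 sets. Tnfsf8, the CD30 ligand gene, had a mean value of 0.33, 0.45 and 0.54 in CD4 T cells, against 0.03, 0.04 and 0.06 in CD8 T cells and 0.02, 0.03 and 0.06 in regulatory T cells. Tnfsf11, the RANK ligand gene, had 0.65, 0.79 and 0.84 in CD4 T cells, 0.11, 0.16 and 0.19 in CD8 T cells, and 0.04, 0.08 and 0.21 in regulatory T cells. For both ligands the lowest CD4 T set was above the highest set of CD8 and of regulatory T cells. A value above 0.5 for Tnfsf11 was found in a median of 45.5% of CD4 T cells, 14.0% of CD8 T cells and 4.64% of regulatory T cells.

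**Figure D2:**
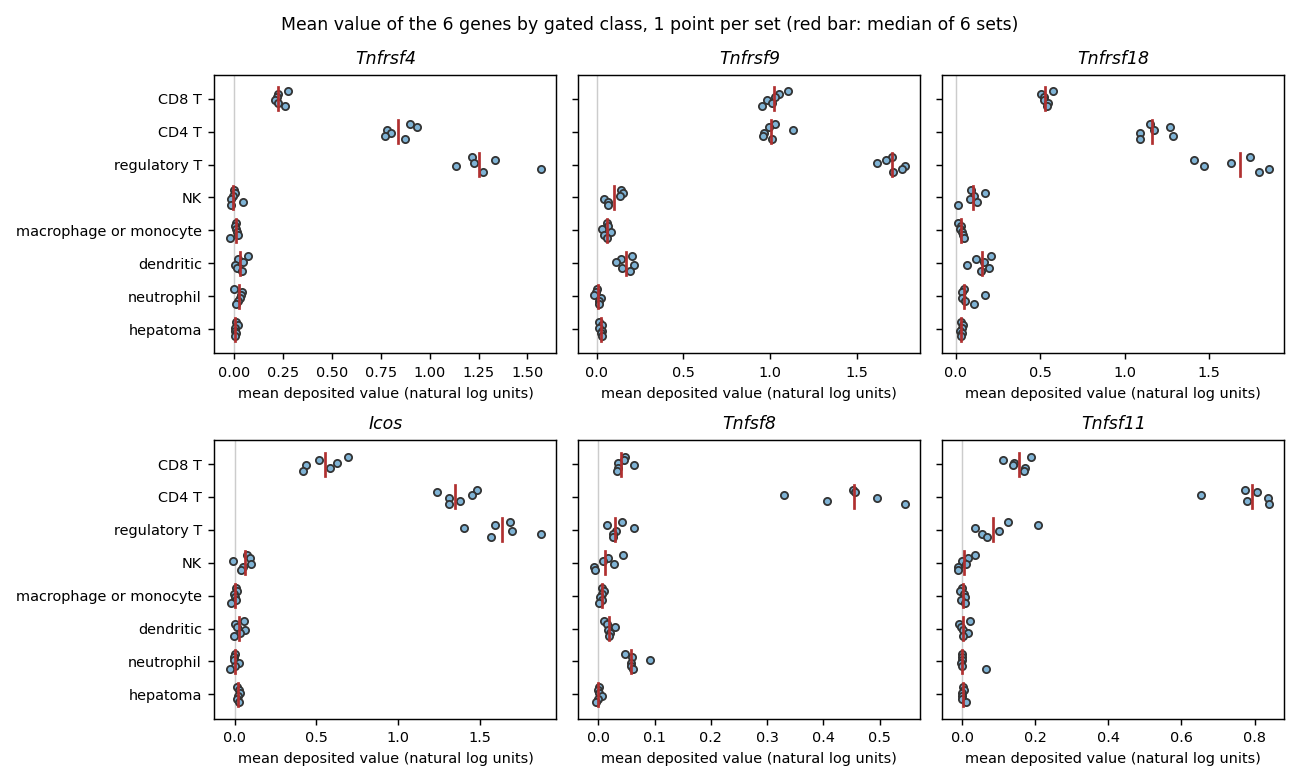
Mean deposited value (x axis, natural log units) of each gene in 8 gated classes, with 1 point per set and a red bar at the median of 6 sets. Regulatory T cells are rightmost for Tnfrsf4, Tnfrsf9 and Tnfrsf18 in every set and for Icos in 5 of 6, and CD4 T cells are rightmost for Tnfsf8 and Tnfsf11.

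Of the 6 genes, 3 (Tnfrsf4, Tnfrsf9 and Tnfrsf18) were higher in regulatory than in CD4 T cells in all 6 sets, and 2 (Tnfsf8 and Tnfsf11) were lower in all 6. Over the 2000 genes of the table, 11.75% were higher and 9.25% lower in all 6 sets. Between CD8 and CD4 T cells, 5 of the 6 were lower in CD8 T cells in all 6 sets, against 10.3% of all genes. Between CD8 and regulatory T cells, Tnfrsf4, Tnfrsf9, Tnfrsf18 and Icos were lower in CD8 T cells in all 6 sets, against 12.05% of all genes. The table's 2000 genes were selected by the submitters for a reason the labels do not state, so these percentages describe that selection and not the transcriptome.

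Counts in set 1 gave sizes to these differences. Gated by value, Tnfrsf4 stood at 431 CPM in regulatory T cells (interval 358 to 515), 277 in CD4 T cells (226 to 337) and 69.6 in CD8 T cells (63.8 to 75.7). The regulatory to CD4 ratio was 1.56 (1.19 to 2.05) for Tnfrsf4, 1.82 (1.46 to 2.27) for Tnfrsf9, 1.53 (1.23 to 1.91) for Tnfrsf18 and 1.32 (1.07 to 1.62) for Icos. All 4 intervals lay above 1 and all 4 ratios were below 2.

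Gated by UMI, the same ratios lay below 1. They were 0.856 (0.648 to 1.14) for Tnfrsf4, 0.840 (0.675 to 1.05) for Tnfrsf9, 0.766 (0.615 to 0.958) for Tnfrsf18 and 0.639 (0.520 to 0.787) for Icos. The direction of these 4 genes in set 1 therefore turned with the gate. Thinned to 2000 UMIs per cell before gating, which left 19 regulatory and 37 CD4 T cells, the log2 ratios were 0.26, 0.72, 0.85 and 0.99 in the same order. The hepatoma list of the regulatory T cells moved with the gate, as given above, and its part in the turn was not tested.

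Both ligands were lower in regulatory than in CD4 T cells under either gate. Tnfsf8 had 142.6 CPM in CD4 T cells (106.5 to 187) and 28.3 in regulatory T cells (12.2 to 55.7) by value, a ratio of 0.198 (0.0814 to 0.420). By UMI the ratio was 0.0821 (0.0336 to 0.175). Tnfsf11 had 324 in CD4 T cells (268 to 388) and 42.4 in regulatory T cells (21.9 to 74.1), a ratio of 0.131 (0.0659 to 0.238) by value and 0.0527 (0.0264 to 0.0955) by UMI. These sums rest on few cells. All 8 Tnfsf8 UMIs and 8 of the 12 Tnfsf11 UMIs of regulatory T cells came from 1 cell each, and 33 of the 118 Tnfsf11 UMIs of CD4 T cells came from 1 cell.

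At least 2-fold lower in regulatory than in CD4 T cells were 2 of the 6 genes under either gate, and 0 were at least 2-fold higher. Among genes with 10 or more UMIs in the pair, 6.55% were at least 2-fold higher and 13.3% lower by UMI, and 18.3% higher and 12.5% lower by value. The median log2 ratio of the 6 genes was -0.51 by UMI and 0.51 by value, beside 0.07 and 0.26 over all genes tested. Leaving out CD4 T cells with a UMI of Foxp3, Ikzf2 or Il2ra, genes of regulatory and activated T cells, kept 59 of 87 CD4 T cells by UMI. It then put 3 genes at least 2-fold higher in regulatory T cells and 1 lower. Only CD4 T cells were filtered, and by genes also found in activated T cells, so part of this change may be built into the filter.

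**Figure D3:**
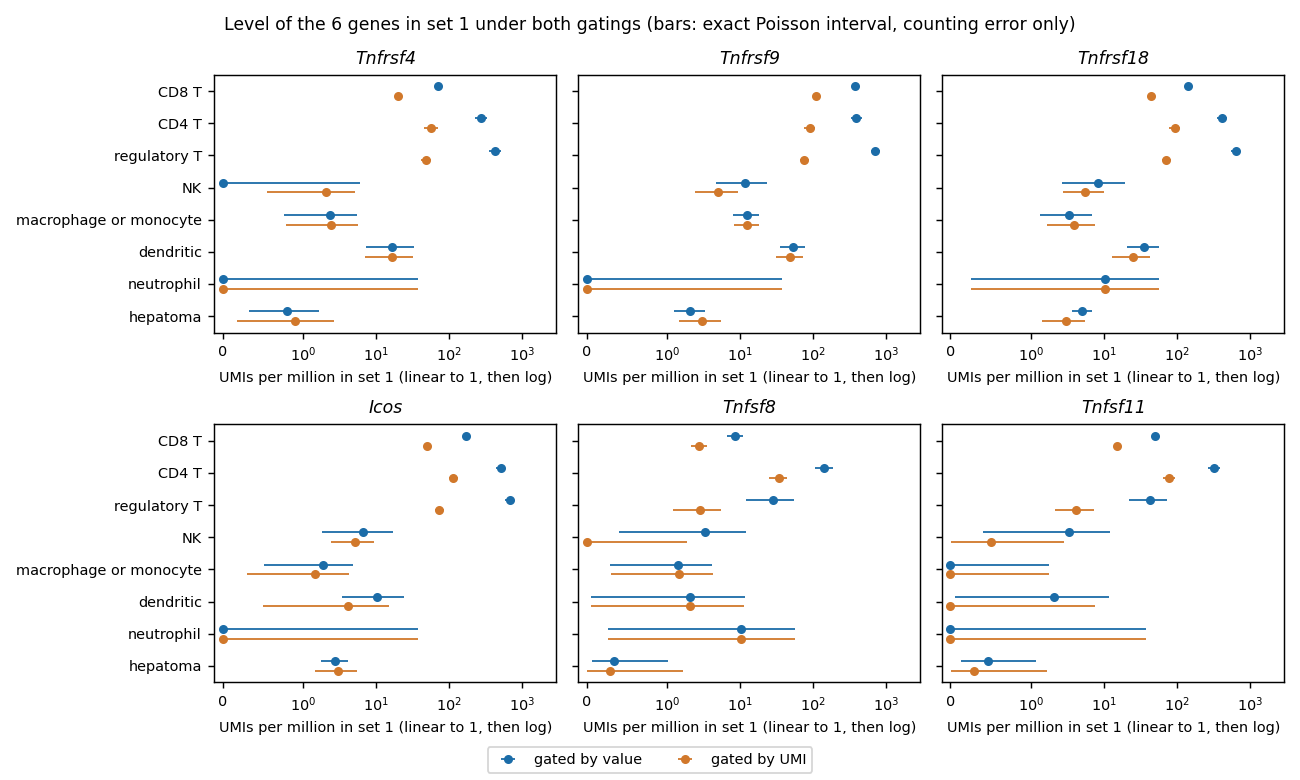
Level of each gene in set 1 (x axis, CPM, linear to 1 and then logarithmic) in 8 gated classes under both gatings, with exact Poisson 95% intervals. T cells gated by value sit to the right of T cells gated by UMI, while macrophages and dendritic cells lie at about the same place under both.

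CD8 T cells were lower than CD4 T cells for 5 of the 6 genes by at least 2-fold under either gate, and Tnfrsf9 was the exception. By value, Tnfrsf4 had a CD8 to CD4 ratio of 0.251 (0.203 to 0.314), Tnfrsf18 of 0.336 (0.284 to 0.401) and Icos of 0.329 (0.283 to 0.386). For the ligands it was 0.0595 (0.0408 to 0.0873) for Tnfsf8 and 0.157 (0.128 to 0.195) for Tnfsf11. Tnfrsf9 stood at 377 CPM in CD8 T cells (363 to 391) and 395 in CD4 T cells (333 to 465), a ratio of 0.954 (0.807 to 1.14). By UMI its ratio was 1.20 (1.01 to 1.44). The shares of genes at least 2-fold higher and lower were 11.5% and 5.14% by UMI, and 26.3% and 11.4% by value. The count of 5 changed with which CD4 T cells were kept. Without those holding a Foxp3, Ikzf2 or Il2ra UMI it was 0 by UMI, with Tnfrsf4 at a log2 ratio of 0.07, Tnfrsf18 at 0.41 and Icos at 0.01. CD8 T cells with Ikzf2 or Il2ra UMIs were kept, and Ikzf2 is among the genes most like Tnfrsf4 and Tnfrsf18, as given below. Part of this change may thus be built into the filter, and its cause was not tested.

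Against regulatory T cells, CD8 T cells gated by value were at least 2-fold lower for 4 of the 6 genes. The ratio was 0.161 (0.132 to 0.198) for Tnfrsf4, 0.219 (0.187 to 0.258) for Tnfrsf18, 0.25 (0.215 to 0.292) for Icos and 0.300 (0.144 to 0.724) for Tnfsf8. The Tnfsf8 call rests on the 8 UMIs of 1 regulatory T cell, and its mean value was higher in CD8 than in regulatory T cells in 5 of 6 sets. Tnfrsf9 had 0.525 (0.455 to 0.609) and Tnfsf11 had 1.20 (0.678 to 2.34). By UMI, 1 gene was lower, Tnfrsf4 at 0.415 (0.343 to 0.503), and 1 was higher, Tnfsf11 at 3.64 (2.06 to 7.10). Tnfrsf9 turned from lower to higher, at 1.43 (1.25 to 1.65). Genes at least 2-fold higher and lower made up 12.9% and 3.2% by UMI, and 23% and 16.6% by value.

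Within CD8 T cells, the 3 receptors were higher where granzymes C to F, proteases of strongly activated killer cells, were high. Cells were split into none, low (under 10 UMIs per 10000 of Gzmc, Gzmd, Gzme and Gzmf together) and high. In the median of the 6 sets Tnfrsf9 went from 0.97 to 1.24 to 1.61 over these 3 classes. Tnfrsf4 went from 0.20 to 0.31 to 0.47, and Tnfrsf18 from 0.48 to 0.72 to 0.87. High cells were above granzyme-free cells in 6 of 6 sets for these 3 receptors, in 5 for Tnfsf11, in 4 for Icos and in 1 for Tnfsf8. They were above granzyme-low cells in 6 sets for Tnfrsf4 and in 5 for Tnfrsf9 and Tnfrsf18. Among all genes 12.65% were higher and 12.45% lower in all 6 sets. There were 38 to 288 high cells per set. Cycling genes such as Mki67 were also higher in granzyme-high than in granzyme-free cells in each of the 6 sets. Medians per set of their summed exp(value) - 1 ran from 2.28 to 8.38 against 2.18 to 4.21. That scale is UMIs per 10000 in set 1 only. The part of cycling in the result was not tested.

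In set 1 gated by value, Tnfrsf9 reached 794 CPM in granzyme-high cells and 336 in granzyme-free cells, a ratio of 2.36 (2.10 to 2.65). The ratio was 2.23 (1.66 to 2.94) for Tnfrsf4, 1.35 (1.05 to 1.70) for Tnfrsf18, 0.914 (0.703 to 1.17) for Icos, 0.751 (0.151 to 2.30) for Tnfsf8 and 0.637 (0.335 to 1.11) for Tnfsf11. Of the 6 genes 2 were thus at least 2-fold higher, beside 4.48% of all genes, with 24.9% lower. By UMI all 6 were at least 2-fold higher, with ratios from 2.34 for Tnfsf11 to 8.39 for Tnfrsf9, beside 17.3% of all genes, with 45.1% lower. The median log2 ratio of all genes was -0.85 by UMI and -0.30 by value, against 1.80 and 0.15 for the 6 genes. After thinning to 2000 UMIs, 1 gene was at least 2-fold higher, Tnfrsf4 at a log2 ratio of 1.10, and Tnfrsf9 stood at 0.93. Granzyme-free CD8 T cells had a median of 6776 UMIs by UMI and 4882 by value, and the 7 T cell genes summed to 1596 and 5433 CPM, against 5574 and 5643 in granzyme-high cells. The part of these differences in the result was not tested.

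Pdcd1, the gene of the PD-1 receptor targeted by the antibody, divided CD8 T cells in the same direction. In the median of the 6 sets Pdcd1-positive cells against Pdcd1-free cells had 1.11 and 0.59 for Tnfrsf9, 0.59 and 0.25 for Tnfrsf18, 0.60 and 0.31 for Icos, 0.25 and 0.11 for Tnfrsf4, and 0.17 and 0.05 for Tnfsf11. These 5 genes were higher in Pdcd1-positive cells in 6 of 6 sets, beside 20.85% of all genes, and 26.8% of all genes were lower in all 6. Tnfsf8 was higher in 2 of 6 sets. In set 1 by value, the ratio was 12.5 (5.33 to 38.7) for Tnfrsf4, 11.4 (4.42 to 42.1) for Tnfsf11, 4.81 (3.26 to 7.39) for Tnfrsf18, 3.37 (2.76 to 4.17) for Tnfrsf9 and 2.70 (2.06 to 3.60) for Icos. Pdcd1-free cells gave 5 UMIs of Tnfrsf4 and 4 of Tnfsf11 in all, which sets the width of the first 2 intervals. Gating by value with a hepatoma ceiling of 20 per 10000, an alternative chosen after seeing the data, kept 102 of 163 Pdcd1-free cells. Their level then rose from 120.6 to 278.6 CPM for Tnfrsf9 and from 67.7 to 151.7 for Icos. The log2 ratio fell to 0.56 for Tnfrsf9 and 0.26 for Icos, under 2-fold, and stood at 1.10 for Tnfrsf18, 2.55 for Tnfrsf4 and 2.45 for Tnfsf11.

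By UMI, the 6 ratios ran from 5.77 for Tnfsf8 to 44.9 for Tnfsf11. Genes at least 2-fold higher and lower made up 21.5% and 21.3% by UMI, and 28.2% and 37.8% by value, beside 6 of 6 and 5 of 6 of the genes described. Thinning to 2000 UMIs before gating took the count from 6 to 0. The log2 ratios were then 0.68 for Tnfrsf4, 0.04 for Tnfrsf9, 0.96 for Tnfrsf18, 0.41 for Icos, -0.00 for Tnfsf8 and 0.56 for Tnfsf11. Detection of Pdcd1 itself depends on depth. Pdcd1-free cells had a median of 26832 UMIs by UMI and 2862 by value, against 5791 and 5475 in Pdcd1-positive cells. The 7 T cell genes summed to 179 CPM by UMI and 2337 by value, against 3778 and 5734. Cycling genes moved the same way by value. On the scale used for granzymes above, their medians per set were 1.02 to 2.38 in Pdcd1-free cells and 2.72 to 5.25 in Pdcd1-positive cells. The hepatoma list had a median of 60.1 per 10000 in Pdcd1-free cells by UMI and 13.7 by value, against 9.74 and 9.32 in Pdcd1-positive cells. Cd8a stood at 34.8 CPM by UMI in Pdcd1-free cells and 533 in Pdcd1-positive cells. The ratios by UMI thus cannot be read as a difference between CD8 T cell states alone. The part of depth, of T cell RNA, of hepatoma RNA and of cycling in the result was not tested.

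The granzyme and Pdcd1 splits were also taken within each other, by value. Within Pdcd1-positive cells the granzyme-high to granzyme-free ratio was 2.17 (1.93 to 2.44) for Tnfrsf9, 1.96 (1.46 to 2.59) for Tnfrsf4, 1.21 (0.939 to 1.53) for Tnfrsf18 and 0.834 (0.641 to 1.07) for Icos. By value it was nearly as large for Tnfrsf9 and Tnfrsf4 as in all CD8 T cells. By UMI it was 3.32 (2.94 to 3.75) for Tnfrsf9 and 2.95 (2.15 to 3.96) for Tnfrsf4. Both lay well below the ratios by UMI in all CD8 T cells. Within granzyme-free cells the Pdcd1-positive to Pdcd1-free ratio by value was 3.32 (2.67 to 4.17) for Tnfrsf9, 6.54 (4.11 to 11.1) for Tnfrsf18 and 3.25 (2.42 to 4.47) for Icos. By UMI these ratios were 26.9, 17.5 and 23.6. In set 1 by value granzyme-high CD8 T cells had a Tnfrsf9 ratio to regulatory T cells of 1.11 (0.927 to 1.33). The ratio was 0.324 for Tnfrsf4 and 0.284 for Tnfrsf18. Their mean Tnfrsf9 value was above that of regulatory T cells in set 1 (1.80 and 1.70) and below it in the other 5 sets, by the most in set 2 (1.30 and 1.67) and by the least in set 3 (1.60 and 1.62). By UMI all 3 ratios to regulatory T cells in set 1 were above 2.

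**Figure D4:**
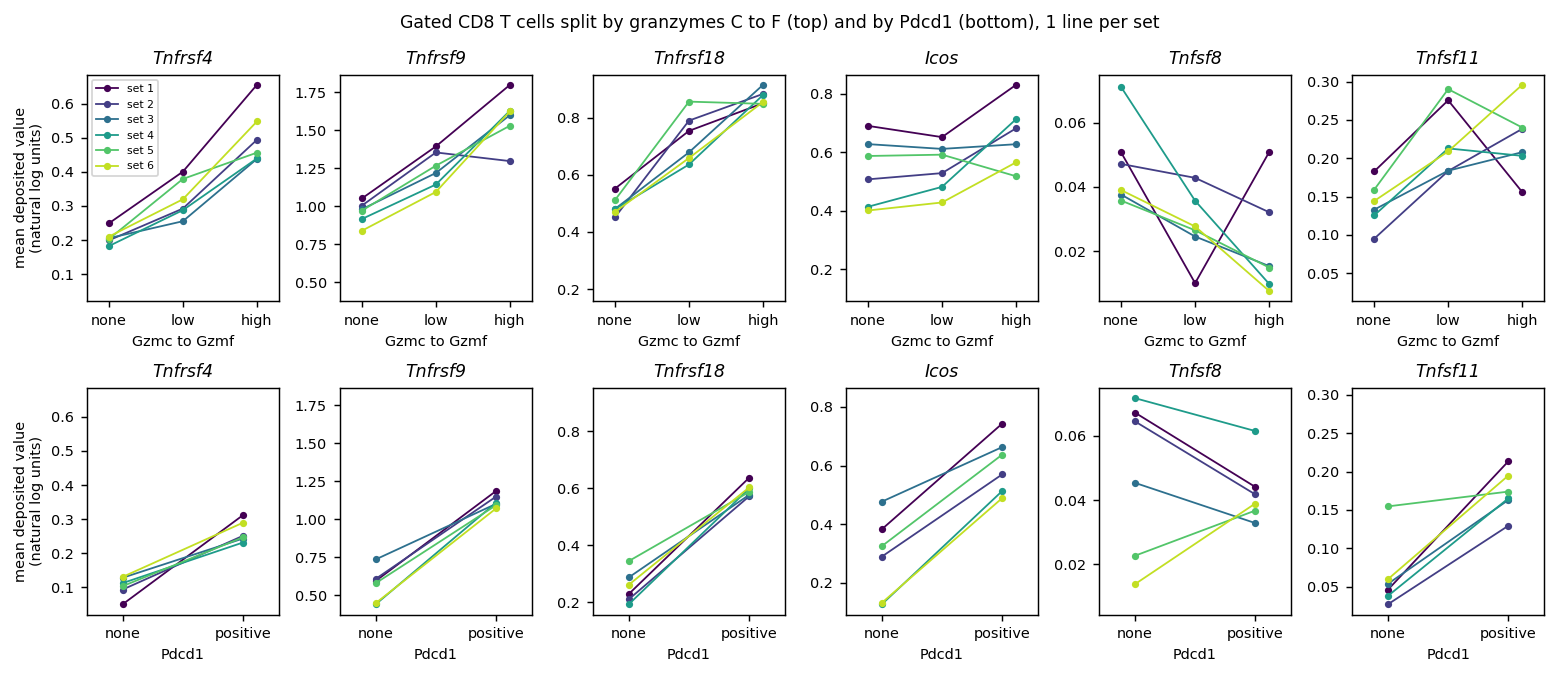
Mean deposited value (y axis, natural log units) of each gene in gated CD8 T cells split by granzymes C to F (top row) and by Pdcd1 (bottom row), with 1 line per set. Lines for Tnfrsf4, Tnfrsf9 and Tnfrsf18 end higher than they start in both rows in all 6 sets, and the highest point for Tnfsf8 is at 0.07.

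NK cells, as gated, had lower levels of the 6 genes than CD8 T cells under either gating. By value their NK list summed to 1140 CPM, with the receptor genes Ncr1 at 8.22 and Klrb1c at 47.7. The same list summed to 740 CPM in CD8 T cells. How much of it came from Eomes and Gzma was not examined, so the name NK rests on the list as a whole. Gated by value, Tnfrsf9 had 11.5 CPM in NK cells (4.62 to 23.7), against 377 in CD8 T cells, a ratio of 0.0305 (0.0123 to 0.0630). Tnfrsf4 had 0 UMIs in 62 NK cells, which puts NK cells at least 14.1-fold lower than CD8 T cells when 3 UMIs over the class are allowed. Icos had a ratio of 0.0385 (0.0105 to 0.0989) and Tnfrsf18 of 0.0583 (0.0189 to 0.136). All 6 genes were at least 2-fold lower in NK than in CD8 T cells under either gate, and all 6 were lower in 6 of 6 sets, where the background is 19.5% of genes. Genes at least 2-fold higher and lower made up 9.47% and 26.3% by UMI, and 34.1% and 35.8% by value. After thinning, which left 24 NK cells, Tnfrsf9 was at a log2 ratio of -0.03 and Tnfrsf18 at -0.98, and 4 genes were at least 2-fold lower. The Tnfsf8 call rests on 2 UMIs by value, at 0.387 (0.0459 to 1.46). Against hepatoma cells NK cells had 5.57 (1.97 to 14.0) times the Tnfrsf9 level by value and 1.70 (0.634 to 4.55) times by UMI. NK cells carried a median of 18.2 hepatoma-list UMIs per 10000 by value (75th percentile 60.3), and the part of this RNA was not tested. A hepatoma ceiling of 20 per 10000, chosen after seeing the data, kept 33 of the 62 NK cells by value. Tnfrsf9 then stood at 58.6 CPM, and Tnfrsf18 and Icos at 29.3 each, against 405.5, 150.4 and 180.8 in CD8 T cells. These NK levels rest on 6, 3 and 3 UMIs. Tnfsf8 had 19.55 CPM from 2 UMIs, above 7.99 in CD8 T cells.

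Macrophages and monocytes were at least 2-fold lower than CD8 T cells for 6 of the 6 genes by value and 5 by UMI, where Tnfsf8 had a ratio of 0.526 (0.106 to 1.60). Their Tnfsf11 count was 0, so the level was at least 35.9-fold lower than in CD8 T cells by value and at least 10.5-fold lower by UMI. Genes at least 2-fold higher and lower made up 20% and 37.7% by UMI, and 26.9% and 25.1% by value. All 6 genes were lower in all 6 sets, beside 27% of all genes. Tnfrsf9 stood at 12.2 CPM in these cells by value (8.0 to 17.9), which was 5.93 (3.13 to 11.5) times the hepatoma level. Tnfrsf18 (0.653, 0.248 to 1.46) and Icos (0.684, 0.173 to 1.99) did not exceed the hepatoma level.

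Among the myeloid classes of set 1, dendritic cells had the highest levels of the 3 TNF receptors. By value they had 53.8 CPM of Tnfrsf9 (35.1 to 78.8), 35.1 of Tnfrsf18 (20.5 to 56.3) and 16.5 of Tnfrsf4 (7.14 to 32.6). Over macrophages and monocytes the ratio was 4.39 (2.45 to 7.87), 10.7 (4.20 to 30.4) and 7.02 (2.03 to 27.3). The 3 genes with enough UMIs to test were thus at least 2-fold higher under either gate. Genes at least 2-fold higher and lower made up 23.9% and 21.5% by UMI, and 20.4% and 21% by value. Across the sets Tnfrsf9 and Tnfrsf18 were higher in dendritic cells than in macrophages in 6 of 6 and Tnfrsf4 in 4 of 6, beside 13.45% of genes higher in all 6. Over hepatoma cells dendritic cells had 26.0 (13.7 to 50.4) times the Tnfrsf9 level and 20.6 (6.53 to 66.7) times the Tnfrsf4 level. Of the 26 Tnfrsf9 UMIs, 9 came from 1 cell. The 7 T cell genes summed to 93.0 CPM in these cells by value, against 45.2 in macrophages, and their part in the receptor values was not tested.

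Neutrophils numbered 49 in set 1 and 13 to 93 per set. Their mean value of Tnfsf8 had a lowest, median and highest set of 0.05, 0.06 and 0.09, but the median share of cells above 0.5 was 0%. In set 1 they gave a single Tnfsf8 UMI, a level of 10.3 CPM, which a count that small leaves between 0.26 and 57.2.

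**Figure D5:**
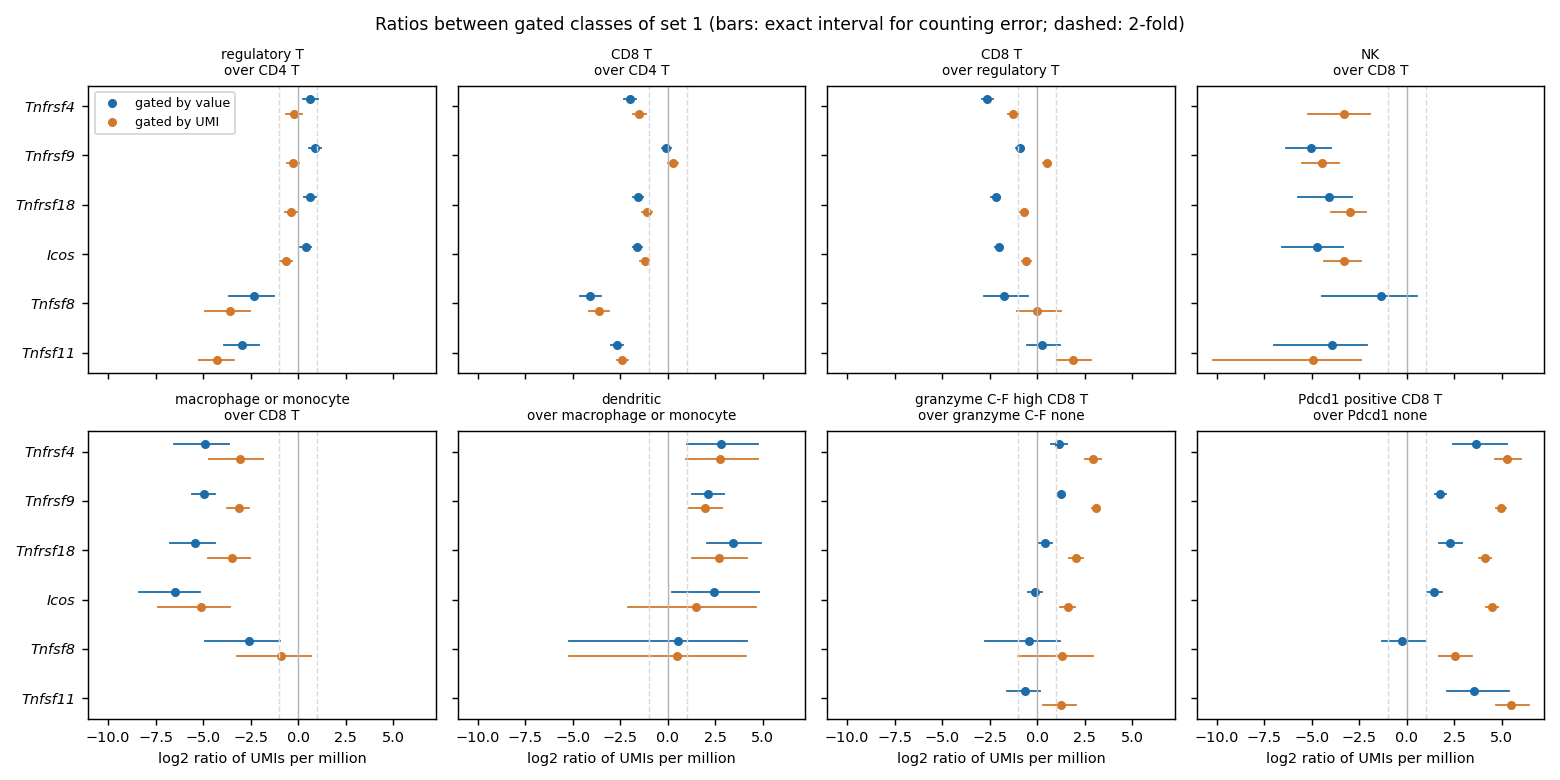
Log2 ratio of CPM (x axis) for each gene in 8 comparisons of set 1 under both gatings, with exact intervals for counting error and dashed lines at 2-fold. A gene with 0 UMIs in either class has no point. Points of the 2 gatings lie on opposite sides of 0 for 4 genes in regulatory over CD4 T cells, for Tnfrsf9 in CD8 T over CD4 T and in CD8 T over regulatory T cells, for Icos, Tnfsf8 and Tnfsf11 in the granzyme comparison and for Tnfsf8 in the Pdcd1 comparison.

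Shares of cells with a UMI were compared after each cell was thinned to 2000 UMIs, by value. This kept 41 of 45 regulatory T cells, 47 of 64 CD4 T cells, 970 of 1140 CD8 T cells and 274 of 286 hepatoma cells. Tnfrsf9 was then found in 63.4% of regulatory T cells (exact binomial interval 46.9 to 77.9), 46.8% of CD4 T cells (32.1 to 61.9), 47.0% of CD8 T cells (43.8 to 50.2) and 0.365% of hepatoma cells (0.00924 to 2.02). Before thinning the shares were 77.8%, 50%, 64.4% and 6.29%, at median depths of 4636, 3323, 5204 and 23890 UMIs. Tnfrsf4 was found in 58.5%, 27.7%, 10.1% and 0.365% in the same order after thinning. For the ligands the thinned share was 34.0% (20.9 to 49.3) for Tnfsf11 and 14.9% (6.20 to 28.3) for Tnfsf8 in CD4 T cells, and 0 of 274 hepatoma cells held either, which allows a share of up to 1.09%.

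Single regulatory and CD4 T cells often held several of the genes. At this depth exactly 4 of the 6 were found in 14 of 41 regulatory T cells (34.1%), in 8 of 47 CD4 T cells (17.0%) and in 15 of 970 CD8 T cells (1.55%). Exactly 3 were found in 7 regulatory T cells (17.1%), 13 CD4 T cells (27.7%) and 77 CD8 T cells (7.94%), and exactly 5 in 1, 3 and 0. None of the 6 was found in 6 regulatory T cells (14.6%), in 6 CD4 T cells (12.8%) and in 282 CD8 T cells (29.1%). Tnfrsf4 was found with both other receptors: of 24 regulatory T cells with Tnfrsf4, 21 (87.5%) held Tnfrsf18, against 5 of 17 (29.4%) without it, and 20 (83.3%) held Tnfrsf9, against 6 of 17 (35.3%). In CD4 T cells with and without Tnfrsf4, Tnfrsf9 was found in 10 of 13 (76.9%) and 12 of 34 (35.3%), and its neighbour Tnfrsf18 in 9 of 13 (69.2%) and 13 of 34 (38.2%). In CD8 T cells the shares for Tnfrsf18 were 38 of 98 (38.8%) and 185 of 872 (21.2%), and for Tnfrsf9 54 of 98 (55.1%) and 402 of 872 (46.1%). Tnfsf8 and Tnfsf11 were found together in 5 of 13 CD8 T cells with Tnfsf8 (38.5%), against 64 of 957 without it (6.69%). These cells share 1 set, and the shares are a description with no test.

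The genes most like each member across 13 classes of set 1 were named by correlation of log2 levels among 1448 genes by UMI and 1376 by value. The classes share libraries and differ in depth, and the smallest held 2 cells. By value, Tnfrsf4 was most like Tnfrsf18 (r = 0.94), Ikzf2 (0.92), which encodes a transcription factor of regulatory T cells, and Arl6ip1 (0.91). Tnfrsf18 was most like Tnfrsf4, Icos (0.94) and Ikzf2 (0.93). Tnfrsf9 was most like Cd2 (0.98), Gem (0.98) and Lck (0.97), and Icos like Cd2 (0.98), Lck (0.97) and Ctla4 (0.97). Cd2 encodes an adhesion receptor of T cells and Lck the kinase that starts T cell receptor signalling. Tnfsf11 was most like Ccl1 (0.98), a chemokine gene, Nefh (0.95) and Csf2 (0.95), the gene of the cytokine GM-CSF. Ccl1 had 296 CPM in CD4 T cells, 48.7 in CD8 T cells and 17.7 in regulatory T cells. Tnfsf8 had no close likeness, with Ncapd2 first at 0.76, followed by Melk and H2-Q6.

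By UMI, Cd2 led for Tnfrsf4 (0.97), Tnfrsf9 (0.98) and Icos (0.97), Gimap4 for Tnfrsf18 (0.97), Ccl1 for Tnfsf11 (0.99) and Gm28177 for Tnfsf8 (0.81). The other genes named by UMI were Tnfrsf9 and Tnfrsf18 for Tnfrsf4, Gem and Tnfrsf4 for Tnfrsf9, and Tnfrsf4 and Ikzf2 for Tnfrsf18. They were Lck and Ctla4 for Icos, Ccdc184 and Penk for Tnfsf11, and Ncapd2 and E2f8 for Tnfsf8.

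Of the pathway genes listed around the 6, the table holds 14 of 39 TNF and TNF receptor genes, 6 of 11 genes of the CD28 and B7 families and 3 of 18 signalling genes and targets. In regulatory over CD4 T cells by value, 0 of 8 tested TNF-family genes were at least 2-fold higher and 4 were lower: Tnf, Lta, Cd40lg and Cd70, which all encode ligands. By UMI, 1 of 10 was higher (Tnfrsf11b, the decoy receptor for RANK ligand) and 3 were lower (Tnfsf4, Cd40lg and Cd70). Tnfrsf11b had 59 UMIs in regulatory T cells by UMI but 2 by value, so its call rests on cells that gating by value leaves out. Cd40lg, the CD40 ligand gene of helper T cells, had 57.6 CPM in CD4 T cells and 0 in regulatory T cells by value. The median log2 ratio of the family was -0.58 by value and -0.43 by UMI. Among all genes tested, 18.3% were higher and 12.5% lower by value, and 6.55% and 13.3% by UMI. In the CD28 and B7 families Pdcd1 was lower under either gate, and Btla also by UMI. Ctla4, an inhibitory receptor, had 2524 CPM in regulatory T cells, 1286 in CD4 T cells and 581 in CD8 T cells by value.

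In CD8 over CD4 T cells by value, 6 of 12 TNF-family genes were at least 2-fold lower (Tnfrsf26, Tnf, Lta, Tnfsf9, Cd40lg and Cd70) and Tnfrsf22 was higher. By UMI 2 of 13 were lower (Cd40lg and Cd70) and Tnfrsf11b was higher. Tnfrsf11b had 103 UMIs in CD8 T cells by UMI but 7 by value, and the source of this RNA was not tested. In granzyme-high over granzyme-free CD8 T cells by value, Cd70, the gene of the ligand of Cd27, was higher among 10 TNF-family genes, and 3 were lower. In Pdcd1-positive over Pdcd1-free CD8 T cells by value, 5 of 10 TNF-family genes were higher (Cd27, Lta, Tnfsf4, Tnfsf9 and Cd70) and 2 lower (Tnfrsf12a and Tnfrsf22). Of the CD28 and B7 families 4 of 6 were higher there, 1 of which is Pdcd1 itself, and of the 3 signalling genes Traf1, a TRAF adaptor, and Tnfaip3, an NF-kB inhibitor, were higher. By UMI the counts of TNF-family genes were 4 higher and 4 lower of 12 for granzymes, and 6 higher and 2 lower of 12 for Pdcd1. By value, Tnfrsf12a and Tnfrsf22 stood at 289 and 38.0 CPM in hepatoma cells, against 45.4 and 6.43 in CD8 T cells. The part of hepatoma RNA in the results for these 2 genes was not tested. In dendritic cells over macrophages and monocytes by value, Tnfsf9, the ligand gene of Tnfrsf9, and Ltb were higher among 8 TNF-family genes, and Tnfrsf26 was lower. By UMI 3 were higher (Ltb, Tnfsf9 and Tnfsf15) and 2 lower (Tnfrsf26 and Tnf). Tnfsf9 stood at 35.1 CPM and Traf1 at 186 in dendritic cells. Of all genes tested by value, 26.3% were at least 2-fold higher and 11.4% lower in CD8 over CD4 T cells. The shares were 4.48% and 24.9% for granzymes, 28.2% and 37.8% for Pdcd1, and 20.4% and 21% for dendritic cells. By UMI they were 11.5% and 5.14%, 17.3% and 45.1%, 21.5% and 21.3%, and 23.9% and 21.5% in the same order. The median log2 ratio of TNF-family genes by value was -0.71 in CD8 over CD4 T cells, -0.36 in granzyme-high over granzyme-free cells, 0.98 in Pdcd1-positive over Pdcd1-free cells and 0.19 in dendritic cells over macrophages, beside 0.19, -0.30, -0.31 and 0.06 over all genes tested.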

How the data were processed

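Tumours were dissociated and sequenced on the DNBelab C4 droplet platform, as the labels' protocols say. STAR 2.7.2b was the aligner, PISA counted UMIs and barcodeRanks of DropletUtils chose cells, per the labels. Both GRCh38 and mm10 are named as builds in the submitters' notes. The authors deposited 1 table of natural log values for 2000 genes and 53528 cells. The choice of genes and the joining of the sets are not given in the sources used here, and all 53528 columns belong to no known sample.

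In set 1 the deposited natural log values equal ln(1 + UMIs per 10000), so totals and whole UMIs were recovered (tolerance 0.01). The table's genes hold part of each cell's UMIs, and levels (CPM) are per 1000000 of the recovered totals. UMIs were summed per class. A gene was tested with 10 or more UMIs in the 2 classes and called when log2 of the ratio of CPM + 1 reached a 2-fold difference. Intervals of ratios are exact conditional Poisson intervals. With 1 pooled sample there is no test across samples and no p-value. Doublets were sought with Scrublet (expected rate 6%), which called 91 of 9370 cells (0.971%) in set 1, and these were removed. Doublets of sets 2 to 6 were not sought. The ratio step was tested on simulated data.

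Lymphocytes held under 50 myeloid, 200 hepatoma and 20 fibroblast UMIs per 10000. Gating by UMI was the planned form. Gating by value in set 1, with a marker above 0.5, was added after the data were seen, and both sets of values were known when the text was written. Macrophages and monocytes, dendritic cells and neutrophils were gated by their own lists. Some markers, such as Cd3e and Csf1r, were not used here. The named genes are the 6 members, pathway genes with 10 or more UMIs, and for each member the 3 genes most like it among genes with 50 or more UMIs. The members and lists were chosen with earlier results of these data known. Motifs were searched in RefSeq promoters, where 5 of the 6 genes matched; Icos had no entry. Tools were numpy 2.4.6, scipy 1.17.1 and scanpy 1.11.5. Alternatives varied the pseudocount, gates, ceilings, granzyme and value cuts, doublets, weighting of cells and depth.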

Additional observations from a re-analysis of the deposited data

How the results depend on the processing

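The values below are for set 1 gated by UMI, as counts of the 6 genes at least 2-fold higher or lower and as log2 ratios. Hepatoma ceilings of 20, 30 and 40 per 10000 and gating by value, alone or with a ceiling of 20, were chosen after seeing the data. Of 258 recomputed counts, 223 stayed within 1.5 times. Of 702 recomputed log2 ratios of single genes, 414 stayed within the counting interval of the ratio by UMI, 240 moved beyond it and 48 turned direction from a ratio whose interval did not hold 1. For regulatory over CD4 T cells the count higher was 0, and became 1 with 2 lineage UMIs required, 3 with CD4 T cells lacking Foxp3, Ikzf2 and Il2ra UMIs, and 2 by value with a ceiling of 20; the count lower became 1 with those CD4 T cells. With them CD8 over CD4 T cells gave 1 higher and 0 lower. For CD8 over regulatory T cells the count higher was 2 with 2 lineage UMIs and with the top cell left out, and 0 with a pseudocount of 10, by value, with ceilings of 20 and 30, and by value with a ceiling of 20. The count lower was 4 with 2 lineage UMIs, thinned, by value, with ceilings of 20 and 30, and by value with a ceiling of 20, 3 with equal weight per cell and a ceiling of 40, and 0 with a pseudocount of 10. NK over CD8 T cells gave 1 higher by value with a ceiling of 20, and dendritic cells over macrophages gave 2 lower when thinned. For granzyme-high over granzyme-free cells the count higher was 2 with 2 lineage UMIs, with equal weight per cell, by value, with each ceiling and by value with a ceiling of 20, and 1 when thinned, with 1 lower. For Pdcd1 the count higher was 0 when thinned and 3 by value with a ceiling of 20.

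Ratios whose counting interval by UMI did not hold 1 turned as follows, and the cause was not tested. In regulatory over CD4 T cells, Tnfrsf18 reached 0.90 with 2 lineage UMIs, 1.10 with the restricted CD4 T cells, 0.00 with equal weight per cell, 0.85 thinned, 0.62 by value, 0.30, 0.16 and 0.19 with ceilings of 20, 30 and 40, and 0.77 by value with a ceiling of 20. Icos reached 0.39, 0.57, 0.99 thinned, 0.40 by value, 0.25 with a ceiling of 20 and 0.75 with both. In CD8 over CD4 T cells with the restricted CD4 T cells, Tnfrsf4 was at 0.07, Tnfrsf18 at 0.41 and Icos at 0.01. Tnfrsf9 there was at -0.03 with 2 lineage UMIs, -0.46 with equal weight, -1.06 thinned, -0.07 by value and -0.06 with a ceiling of 30. In CD8 over regulatory T cells Tnfrsf9 was at -1.10, -0.59, -1.78 and -0.93 under the first 4 of these, at -0.61, -0.42 and -0.03 with ceilings of 20, 30 and 40, and at -0.91 by value with a ceiling of 20. Tnfsf8 in NK over CD8 T cells was at 1.19 by value with a ceiling of 20. For granzymes, Icos was at -0.17 thinned, -0.13 by value, -0.22 and -0.14 with ceilings of 20 and 30, and -0.25 by value with a ceiling of 20. Tnfsf11 was at -0.13 with 2 lineage UMIs, -0.39 with equal weight, -0.64 by value, -0.48, -0.44 and -0.30 with the ceilings, and -0.67 by value with a ceiling of 20. For Pdcd1, Tnfsf8 was at -0.05 with equal weight, -0.00 thinned, -0.22 by value and -0.61 by value with a ceiling of 20. Ratios whose interval held 1 turned too, among them, in regulatory over CD4 T cells, Tnfrsf4 from -0.22 to 0.64 and Tnfrsf9 from -0.25 to 0.86 by value, and Tnfsf8 for granzymes from 1.08 to -0.37. No paired analysis was possible because no result comes from a test over samples; classes were compared within each set as values. Few regulatory T, CD4 T and NK cells limit the precision of set 1.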
